A study of Bos taurus with 6 samples.

Results

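The glutathione and thioredoxin systems and the other enzymes that remove reactive oxygen species were followed here as 59 genes of the 47249 in the table. They were chosen by a rule on gene symbols, set with earlier results of these data known, as every gene named as a glutathione S-transferase (GST), a microsomal GST, a glutathione peroxidase, a peroxiredoxin, a protein whose symbol begins with TXN, a superoxide dismutase, catalase or an enzyme of glutathione synthesis and reduction (GCLC, GCLM, GSS and GSR). The 59 genes carry 56 symbols and lie on 25 chromosomes. The testes came from untreated Bos taurus, namely 3 immature calves aged 3 ± 0.24 months and 3 bulls, called andrologically mature, aged 3 ± 0.014 years. These spreads are from the authors' Methods, and their Results instead give 0.014 months for the calves and 0.24 years for the bulls. Each animal gave 1 RNA-seq library of total RNA from which ribosomal RNA had been removed. Each library was labelled as testis, and the tissue had not been sorted, so every level is a mixture over the cells present. The cell type markers of calf 3, given below, differed from those of all other libraries, and the origin of that tissue was not tested. Levels are FPKM, which scale the fragments of a gene by its transcript length and by the size of the library, so levels of different genes are compared per length.

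Glutathione is a tripeptide that carries a reactive thiol. Glutathione peroxidases spend it to reduce peroxides, glutathione reductase restores it with NADPH, and the GSTs attach it to reactive compounds. Thioredoxin is a small protein with a pair of cysteines that passes electrons from thioredoxin reductase to the peroxiredoxins, which also reduce peroxides. In testis, sperm precursors carry their own forms of several of these proteins, and the membranes of sperm are rich in polyunsaturated lipids that peroxides attack.

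The library labelled calf 3 stood apart, and fold changes are therefore also given without it. All 14 brain markers examined were highest in this library, with summed levels of 12343 FPKM for the 5 oligodendrocyte markers, 2690.0 FPKM for the 4 astrocyte markers and 666 FPKM for the 5 neuron markers, against 3.35 to 10.1, 59.7 to 148 and 2.93 to 8.17 FPKM in the other libraries. The Leydig cell markers (6 symbols, 8 genes) summed to 0.502 FPKM in calf 3, with 4 genes listed at 0, against 1141 to 2738 FPKM in the others. The 7 Sertoli cell markers summed to 444 FPKM in calf 3, of which CLDN11, which is also a protein of myelin, gave 429 FPKM, and 3 were listed at 0. Of the 55 members tested, 36 lay below both other calves in calf 3 and 12 above both. In calf 3, 12 members lay at least 4-fold below the mean of the other calves on log2(FPKM + 1), and 0 lay 4-fold above, while 1 member differed by 4-fold between calf 1 and calf 2.

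**Figure D1:**
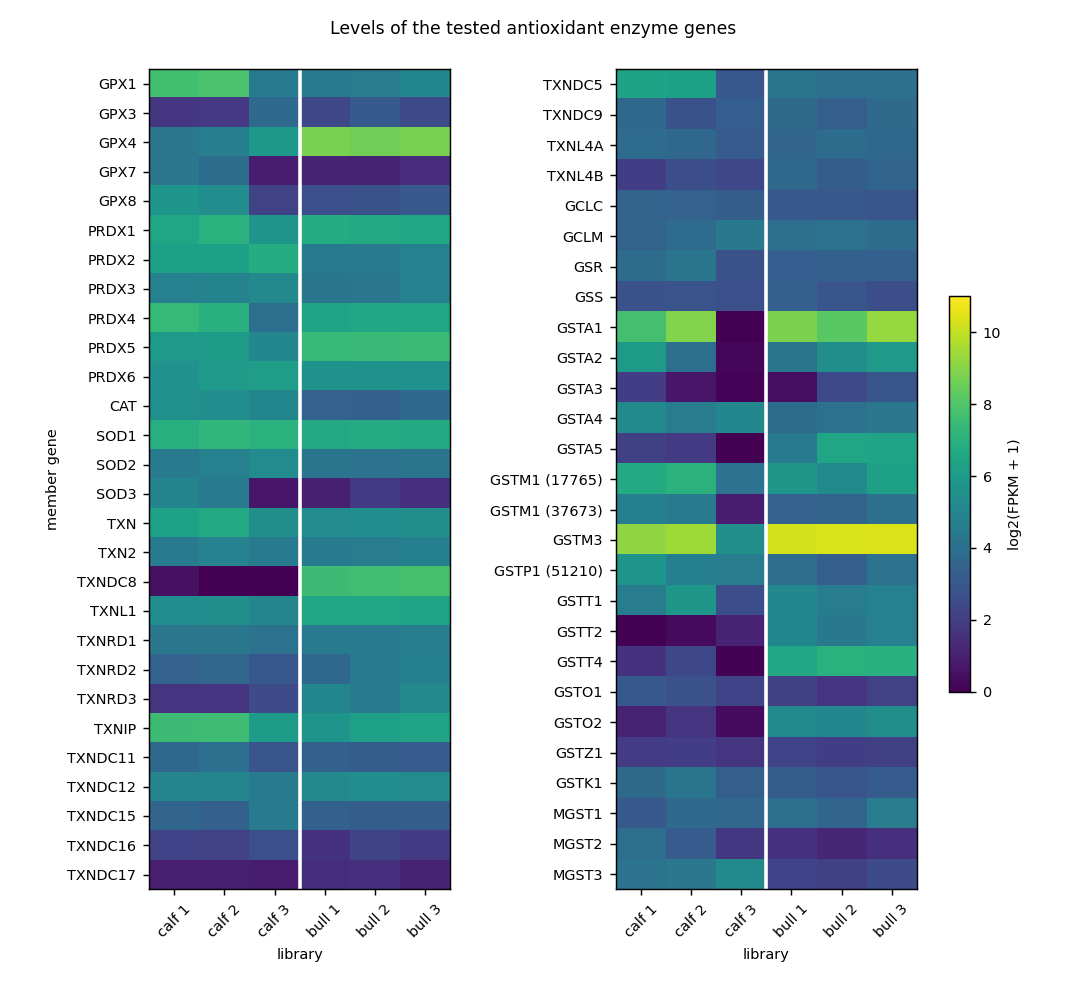
Level of each of the 55 tested members, on log2(FPKM + 1), in the 6 libraries (columns; the white line divides calves from bulls). GSTM3 was highest in the bulls at 1228 to 1386 FPKM, and many rows were darker in calf 3, where 27 members had their lowest value of all libraries.

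Higher in the testes of the bulls were GPX4, TXNDC8, TXNRD3, PRDX5, GSTT4, GSTT2, GSTO2 and GSTA5, by 1.79 (PRDX5) to 7.49 (TXNDC8) on the log2 scale, and TXNL1 and TXNL4B, by 1.23 and 1.15, whose calls were lost with quantile normalization and with median ratio scaling. Lower were CAT, PRDX2, MGST3 and 1 of 2 GSTP1 genes, with log2 differences of -1.22 (GSTP1) to -2.28 (MGST3). The GSTP1 call was lost without calf 1 and without each bull in turn. A member was called when its adjusted p was below 0.05 and its log2 fold change, bulls over calves, was at least 1 in size. With all 6 libraries, 10 members were called higher in bulls and 4 lower, while 35.7% of the 18115 genes tested were called higher and 9.61% lower. Without calf 3, 11 members were called higher and 13 lower, against 37.9% and 13.6% of all genes, and all 14 calls of the full set were made again in the same direction. The median log2 fold change of the members was 0.17 with all libraries and -0.14 without calf 3, and that of all genes was 0.43 in both. Of the 55 tested, 43 reached 1 FPKM in all 6 libraries. Another 10 reached it in all bulls but in fewer than 3 calves, so they would not have passed the filter without the bulls. Among them were TXNDC8, GSTT2, GSTT4, GSTO2 and GSTA5, all called higher in bulls. TXNDC8 and TXNDC17 reached it in no calf and entered the test through the bulls alone. In 16 members all bulls lay above all calves and in 12 all bulls lay below them, where 46.1% and 21.3% of all genes did so. Fold changes below are log2 values on log2(FPKM + 1), bulls over calves, with the standard error.

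How many members were called in each direction changed when the libraries were rescaled. After quantile normalization, which gives each library the same distribution, 9 members were called higher and 17 lower, and all genes were called higher in 21.1% and lower in 25.1%. After scaling by the median ratio, 8 members were called higher and 12 lower, and 29.2% and 18.0% of all genes. GSTA4, GSTK1, GSTO1, MGST2, PRDX3, SOD2, TXN and TXNIP, not called on the values as deposited with all libraries, were called lower under both scalings. The median of all genes moved from 0.43 to -0.26 and 0.00 under these scalings, and that of the members to -0.51 and -0.32. With quantile normalization and without calf 3, a combination chosen after seeing the data, 8 members were called higher and 25 lower, against 22.4% and 29.1% of all genes. Shares of a family's FPKM within a library are not altered by a common factor per library, and are given below for that reason.

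Markers of germ cells moved with the groups. All 6 spermatocyte markers, all 5 round spermatid markers (TXNDC8 left out) and all 6 elongating spermatid markers were called higher in bulls (5 of 6 spermatocyte markers without calf 3). Of all genes 35.7% were called higher and 9.61% lower (37.9% and 13.6% without calf 3). The summed levels of the 3 sets were 3.03 to 19.7, 0.567 to 6.001 and 1.89 to 4.005 FPKM in calves. In bulls they were 245 to 295, 379 to 408 and 13429 to 15126 FPKM. In calf 3 the round spermatid markers summed to 0.567 FPKM and the elongating spermatid markers to 1.89 FPKM. Thus none of the former and few of the latter could have passed the filter without the bulls. Their calls as higher were therefore likely from the start. Of the 6 spermatogonial markers, 2 were called higher and 1 lower (2 and 2 without calf 3). The Sertoli cell markers summed to 1475 and 1787 FPKM in calves 1 and 2 and to 186 to 221 FPKM in bulls, and without calf 3 they were called lower in 6 of 7 and higher in 1. Of the 4 peritubular myoid markers 2 were called higher (2 higher and 1 lower without calf 3), and of 3 tested macrophage markers 1 was called higher and 1 lower in each fit. Of the Leydig, Sertoli, endothelial and red blood cell markers 8, 7, 3 and 1 were tested. With all libraries 0 of these were called by limma, where an unadjusted p below 0.05 was reached by 1, 1, 0 and 1 of them. Their part in the results below was not tested, and in whole testis fewer cells of a type and less RNA per cell cannot be told apart.

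Among the glutathione peroxidases, GPX4 was called higher in bulls, and GPX1, GPX7 and GPX8 were called lower without calf 3. GPX4 (chr7:43588660-43591106), which reduces lipid peroxides within membranes and is also a structural protein of the sperm midpiece, lay at 19.6, 24.8 and 56.9 FPKM in calves 1 to 3 and 441, 388 and 439.6 FPKM in bulls 1 to 3. Every bull lay above every calf, with a fold change of 3.75 ± 0.40 (adjusted p = 0.000462) and 4.20 ± 0.13 (adjusted p = 2.18e-06) without calf 3. GPX1, the widespread peroxidase of the cytosol, lay at 205, 232 and 21.4 FPKM in calves 1 to 3 and 22.05, 24.5 and 34.6 FPKM in bulls 1 to 3. Calf 3 was the lowest library for GPX1, so the groups overlapped, and the fold change was -1.89 ± 0.92 (adjusted p = 0.13) with it and -2.99 ± 0.20 (adjusted p = 3.88e-05) without it.

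GPX7 and GPX8 are peroxidases of the endoplasmic reticulum that help to oxidise folding proteins. GPX7 lay at 19.6, 13.6 and 0.800 FPKM in calves 1 to 3 and 1.05, 1.10 and 1.67 FPKM in bulls 1 to 3. GPX8 lay at 54.5, 41.1 and 3.36 FPKM in calves 1 to 3 and 5.40, 5.67 and 7.30 FPKM in bulls 1 to 3. For both genes calf 3 was below all bulls and the other calves were above all bulls. Their fold changes were -1.85 and -1.62 with calf 3, neither of them called, and -2.94 ± 0.21 (adjusted p = 5.69e-05) and -2.77 ± 0.18 (adjusted p = 3.53e-05) without it. The gene GPX8 overlaps CDC20B, and fragments in the shared stretch could have been assigned to either.

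GPX3, the peroxidase secreted into plasma, lay at 2.37, 2.54 and 12.6 FPKM in calves 1 to 3 and 4.24, 7.63 and 4.70 FPKM in bulls 1 to 3. It was highest in calf 3 and was not called in either fit, at 0.22 and 0.88. GPX5, a secreted peroxidase best known from the epididymis, has 2 genes in the table. The gene on chromosome 1 reached at most 0.199 FPKM, in calf 1, and the gene on chromosome 23 was listed at 0 in all libraries, so neither was tested. No gene of the table carried the symbol GPX2 or GPX6.

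The 7 peroxidases together summed to 301, 314 and 94.98 FPKM in calves 1 to 3 and 474, 426 and 488 FPKM in bulls 1 to 3. GPX4 made up 6.51, 7.89 and 59.9% in calves 1 to 3 and 93.1, 90.9 and 90.1% in bulls 1 to 3. GPX1 made up 68.03, 73.9 and 22.5% in calves 1 to 3 and 4.65, 5.74 and 7.09% in bulls 1 to 3. The leading peroxidase was thus GPX1 in calves 1 and 2 and GPX4 in calf 3 and all bulls.

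**Figure D2:**
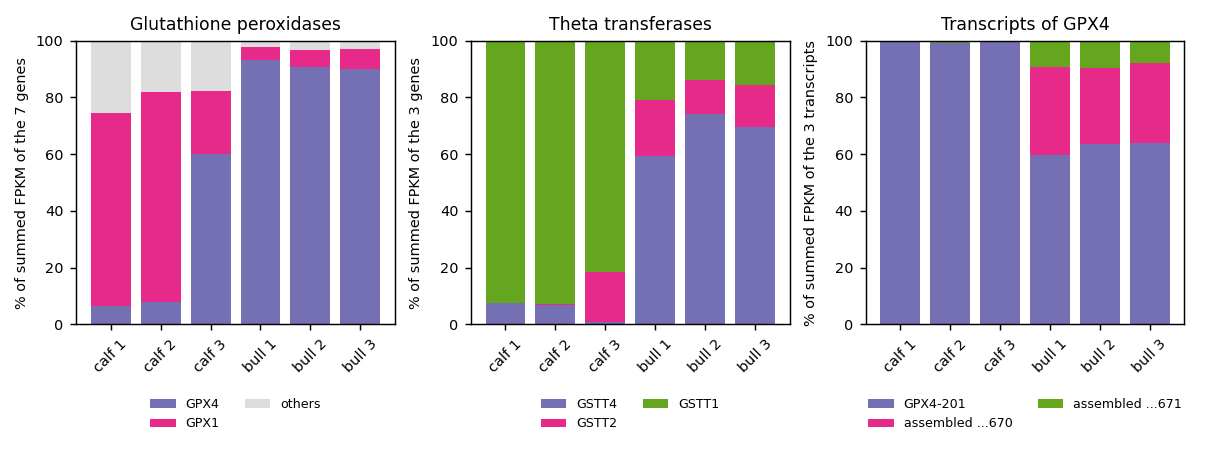
Share of each library's summed FPKM (y axis, percent) taken by GPX4, GPX1 and other glutathione peroxidases (left), by the theta GSTs (middle) and by the transcripts of GPX4 (right), with 1 bar per library. GPX4 took 90.1% to 93.1% of the peroxidase FPKM in bulls and 6.51% and 7.89% in calves 1 and 2, and 2 assembled GPX4 transcripts appeared in the bull bars.

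The rise of GPX4 was shared by 3 transcripts, described after their values were seen. The annotated transcript GPX4-201 lay at 19.5, 24.6 and 56.7 FPKM in calves 1 to 3 and 263, 247 and 280.4 FPKM in bulls 1 to 3, with a fold change of 3.08 ± 0.40 (adjusted p = 0.00116) and 3.52 ± 0.13 (adjusted p = 2.27e-05) without calf 3. A transcript assembled by the authors, TCONS_00327670, was listed at 0 in all calves and at 137, 104 and 125 FPKM in bulls 1 to 3. The other assembled transcript, TCONS_00327671, lay at 0.0680, 0.163 and 0.222 FPKM in calves 1 to 3 and 41.2, 36.7 and 34.5 FPKM in bulls 1 to 3. GPX4-201 made up 99.7, 99.3 and 99.6% in calves 1 to 3 and 59.6, 63.7 and 63.8% in bulls 1 to 3 of the summed FPKM of the 3 transcripts. Its share was thus lower in every bull than in every calf, calf 3 included.

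Of the 6 peroxiredoxins, PRDX5 was called higher in bulls, PRDX2 was called lower, and the other four were not called in either fit. PRDX5, found in mitochondria, peroxisomes and cytosol, lay at 58.7, 61.9 and 33.2 FPKM in calves 1 to 3 and 165, 175 and 179.8 FPKM in bulls 1 to 3. All bulls lay above all calves, and the fold change was 1.79 ± 0.27 (adjusted p = 0.00202) and 1.51 ± 0.09 (adjusted p = 2.87e-05) without calf 3. Of the alternatives run, its call was lost only with quantile normalization and without calf 3, at 0.81. PRDX5 made up 12.8, 13.1 and 10.5% in calves 1 to 3 and 37.2, 38.4 and 38.5% in bulls 1 to 3 of the peroxiredoxin FPKM, and was the leading peroxiredoxin in each bull.

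PRDX2, an abundant peroxiredoxin of the cytosol, lay at 73.1, 72.9 and 111 FPKM in calves 1 to 3 and 21.4, 22.6 and 27.8 FPKM in bulls 1 to 3. Every calf lay above every bull, calf 3 highest, and the fold change was -1.78 ± 0.22 (adjusted p = 0.00093) and -1.58 ± 0.13 (adjusted p = 0.000105) without calf 3. PRDX2 and catalase are also plentiful in red blood cells, whose 5 markers in the table summed to 1.78 to 4.76 FPKM, with HBB at 0 to 1.29 FPKM in the 6 libraries. Of these markers 1 passed the filter, and the part of red blood cells in the levels of PRDX2 and CAT was not tested.

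PRDX1, the other main cytosolic form, lay at 88.9, 128 and 52.4 FPKM in calves 1 to 3 and 107, 98.7 and 96.8 FPKM in bulls 1 to 3. The groups overlapped and the fold changes were 0.26 and -0.08 without calf 3. PRDX3, the mitochondrial form, lay at 26.8, 29.1 and 35.3 FPKM in calves 1 to 3 and 18.3, 18.7 and 27.7 FPKM in bulls 1 to 3, with fold changes of -0.49 and -0.38. PRDX6, which uses glutathione and also acts on phospholipids, lay at 46.8, 59.7 and 70.99 FPKM in calves 1 to 3 and 48.7, 49.1 and 46.4 FPKM in bulls 1 to 3, with -0.28 and -0.14. In PRDX1 all bulls lay between calf 1 and calf 2, and in PRDX3 and PRDX6 the groups overlapped too.

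PRDX4, the peroxiredoxin of the endoplasmic reticulum, lay at 163, 122 and 14.6 FPKM in calves 1 to 3 and 83.8, 91.6 and 88.5 FPKM in bulls 1 to 3. Calf 3 was lowest and the other calves were highest, so the fold change went from 0.38 with calf 3 to -0.68 without it, and was called in neither. Together the peroxiredoxins summed to 457, 475 and 317 FPKM in calves 1 to 3 and 445, 456 and 467 FPKM in bulls 1 to 3. Apart from calf 3, this sum stayed between 444.9 and 475 FPKM, while the leading gene was PRDX4 in calf 1, PRDX1 in calf 2 and PRDX5 in the bulls.

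Of catalase and the 3 superoxide dismutases, catalase was called lower in bulls, and SOD3 was called lower without calf 3. CAT, the peroxisomal enzyme that splits hydrogen peroxide, lay at 44.3, 40.7 and 32.2 FPKM in calves 1 to 3 and 9.85, 9.71 and 12.5 FPKM in bulls 1 to 3. All bulls lay below all calves, with a fold change of -1.77 ± 0.19 (adjusted p = 0.000448) and -1.90 ± 0.14 (adjusted p = 6.08e-05) without calf 3. SOD3, the dismutase of the extracellular matrix, lay at 29.8, 23.1 and 0.590 FPKM in calves 1 to 3 and 0.967, 2.66 and 1.86 FPKM in bulls 1 to 3. Calf 3 was the lowest library, the other calves were well above the bulls, and the fold change was -1.95 ± 1.15 (adjusted p = 0.199) with it and -3.31 ± 0.28 (adjusted p = 0.000109) without it. The annotated span of SOD3 overlaps CCDC149.

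SOD1, the copper and zinc dismutase of the cytosol, lay at 122.6, 151 and 130.3 FPKM in calves 1 to 3 and 98.1, 108 and 101 FPKM in bulls 1 to 3. SOD2, the manganese dismutase of mitochondria, lay at 22.7, 26.9 and 38.9 FPKM in calves 1 to 3 and 18.3, 17.2 and 17.7 FPKM in bulls 1 to 3. For both, all bulls lay below all calves, but the fold changes of -0.39 and -0.67 (without calf 3, -0.41 and -0.46) did not reach the size of a call. After quantile normalization both were called, at -1.10 and -1.36.

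**Figure D3:**
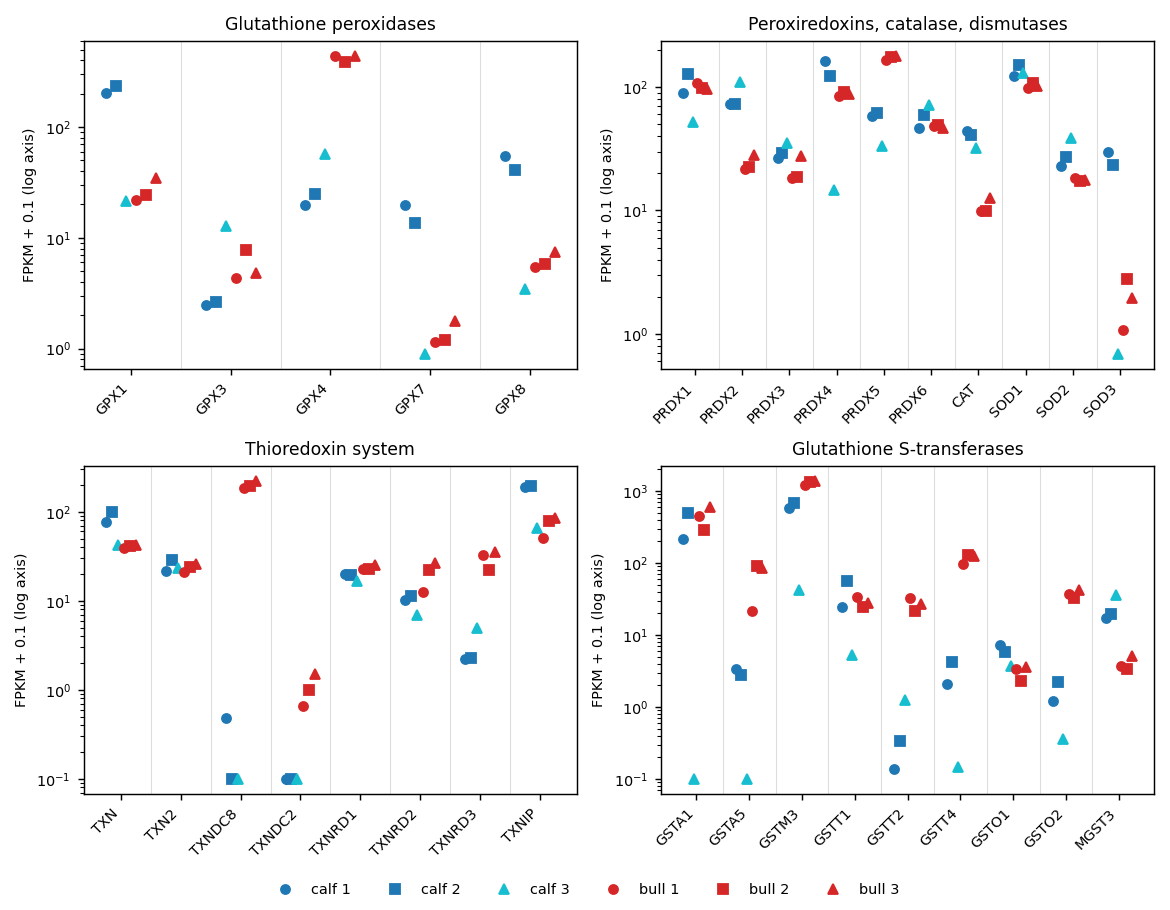
FPKM + 0.1 (log axis) of selected members in the 3 calves (blue; calf 3 light blue) and the 3 bulls (red), 1 point per library. GPX4, PRDX5, TXNDC8, TXNRD3, GSTT4, GSTT2 and GSTO2 were higher in every bull than in every calf, and PRDX2, CAT and MGST3 were lower in every bull.

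Among the thioredoxins, the form of spermatids was called higher in bulls and the general form was called lower without calf 3. TXNDC8 (chr8:99819559-99872616), a thioredoxin of spermatids, lay at 0.389, 0 and 0 FPKM in calves 1 to 3 and 184, 194 and 222 FPKM in bulls 1 to 3. It was at or near 0 in the calves and its fold change of 7.49 ± 0.19 (adjusted p = 3.59e-06), or 7.41 ± 0.17 (adjusted p = 7.95e-07) without calf 3, was the largest of the members. TXN (chr8:99799187-99811602), the thioredoxin of the cytosol, lies close to TXNDC8 on the chromosome and lay at 76.4, 99.6 and 42.5 FPKM in calves 1 to 3 and 38.8, 40.8 and 42.4 FPKM in bulls 1 to 3. All calves lay above all bulls, calf 3 by a margin of 42.5 against 42.4 FPKM, and the fold change was -0.74 ± 0.32 (adjusted p = 0.096) with calf 3 and -1.08 ± 0.14 (adjusted p = 0.000536) without it.

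The 5 thioredoxins (TXN, TXN2, TXNDC2, TXNDC8 and TXNL1) summed to 137, 171 and 96.3 FPKM in calves 1 to 3 and 336, 349 and 378 FPKM in bulls 1 to 3. TXNDC8 made up 0.283, 0 and 0% in calves 1 to 3 and 54.8, 55.5 and 58.8% in bulls 1 to 3, and TXN made up 55.6, 58.2 and 44.1% in calves 1 to 3 and 11.5, 11.7 and 11.2% in bulls 1 to 3. The thioredoxin with the highest level per length was TXN in every calf and TXNDC8 in every bull.

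TXNDC2, another sperm thioredoxin, was listed at 0 in all calves and lay at 0.566, 0.891 and 1.41 FPKM in bulls 1 to 3, too low to be tested. TXNL1, a thioredoxin-like protein bound to the proteasome, lay at 39.3, 42.8 and 30.7 FPKM in calves 1 to 3 and 91.3, 89.6 and 85.95 FPKM in bulls 1 to 3. All bulls lay above all calves, with a fold change of 1.23 ± 0.17 (adjusted p = 0.00149) and 1.10 ± 0.09 (adjusted p = 0.000108) without calf 3, but the call was lost after quantile normalization (0.44) and median ratio scaling (0.71). TXN2, the mitochondrial thioredoxin, lay at 21.3, 28.6 and 23.02 FPKM in calves 1 to 3 and 21.2, 24.00 and 25.99 FPKM in bulls 1 to 3, with overlapping groups and fold changes of -0.03 and -0.06.

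Of the 3 thioredoxin reductases, TXNRD3 was called. TXNRD3, which joins a glutaredoxin domain to the reductase and is known from testis, lay at 2.14, 2.18 and 4.85 FPKM in calves 1 to 3 and 32.5, 22.3 and 35.1 FPKM in bulls 1 to 3. Every bull lay above every calf, with a fold change of 2.97 ± 0.32 (adjusted p = 0.000478) and 3.27 ± 0.21 (adjusted p = 3.20e-05) without calf 3. TXNRD2, the mitochondrial reductase, lay at 10.01, 11.2 and 6.87 FPKM in calves 1 to 3 and 12.3, 21.9 and 26.2 FPKM in bulls 1 to 3, with a fold change of 0.99 ± 0.33 (adjusted p = 0.0419), just under the size of a call, and 0.80 ± 0.30 (adjusted p = 0.049) without calf 3. Bull 1 was the lowest bull, and TXNRD2 was called without bull 1, at 1.29 (adjusted p = 0.0159). With all libraries it was also called at a pseudocount of 0.1, at 1.06 (adjusted p = 0.0438). After quantile normalization (0.41) and median ratio scaling (0.50) TXNRD2 was not called.

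TXNRD1, the cytosolic reductase, lay at 19.7, 19.4 and 16.6 FPKM in calves 1 to 3 and 22.7, 22.4 and 24.97 FPKM in bulls 1 to 3. All bulls lay above all calves, but the fold change was 0.32 (0.24 without calf 3). TXNRD3 made up 6.74, 6.64 and 17.1% in calves 1 to 3 and 48.1, 33.5 and 40.7% in bulls 1 to 3 of the reductase FPKM, and TXNRD1 made up 61.8, 59.1 and 58.6% in calves 1 to 3 and 33.6, 33.6 and 28.95% in bulls 1 to 3. The share of TXNRD3 was higher in every bull than in every calf.

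TXNIP, which binds thioredoxin and blocks its active site, lay at 187, 192 and 65.9 FPKM in calves 1 to 3 and 50.3, 78.6 and 85.2 FPKM in bulls 1 to 3. Calf 3 lay among the bulls, and the fold change was -0.93 ± 0.48 (adjusted p = 0.146) with it and -1.43 ± 0.23 (adjusted p = 0.00157) without it.

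Of the other proteins with a thioredoxin domain, TXNDC5 was called lower without calf 3. TXNDC5, a disulfide isomerase of the endoplasmic reticulum, lay at 81.5, 72.9 and 6.93 FPKM in calves 1 to 3 and 17.7, 14.9 and 15.9 FPKM in bulls 1 to 3. Its fold change was -1.09 ± 0.91 (adjusted p = 0.348) with calf 3, the lowest library, and -2.19 ± 0.12 (adjusted p = 1.56e-05) without it. The remaining 6 genes of this kind (TXNDC9, TXNDC11, TXNDC12, TXNDC15, TXNDC16 and TXNDC17) were called in neither fit, with fold changes from -0.54 (-0.18 without calf 3) for TXNDC15, a protein of cilia, to 0.44 (0.30) for TXNDC12, an oxidoreductase of the endoplasmic reticulum. TXNDC17 was low, at 0.860 to 0.947 FPKM in calves and 1.16 to 1.86 FPKM in bulls.

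TXNL4A and TXNL4B resemble thioredoxin in fold but are proteins of the splicing machinery. TXNL4B lay at 2.97, 5.16 and 4.23 FPKM in calves 1 to 3 and 11.96, 8.37 and 10.6 FPKM in bulls 1 to 3. All bulls lay above all calves, with a fold change of 1.15 ± 0.24 (adjusted p = 0.00735) and 1.18 ± 0.24 (adjusted p = 0.00449) without calf 3. The call was lost after quantile normalization (0.65), after median ratio scaling (0.70) and without calf 1 (0.98), and TXNL4B overlaps DHX38. TXNL4A was not called, at 0.17 and -0.03 without calf 3.

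Of the 4 enzymes of glutathione synthesis and reduction, 0 were called by limma in either fit. Of all genes 35.7% were called higher and 9.61% lower (37.9% and 13.6% without calf 3). At an unadjusted p below 0.05 there was 1 lower with all libraries and 2 lower without calf 3. The latter, GCLC and GSR, also had an adjusted p below 0.05 without calf 3, and only missed the size of a call. GCLC, the catalytic subunit of the first and limiting step, lay at 10.4, 9.94 and 8.51 FPKM in calves 1 to 3 and 6.90, 6.92 and 6.54 FPKM in bulls 1 to 3. All bulls lay below all calves, with a fold change of -0.45 ± 0.15 (adjusted p = 0.0506) and -0.52 ± 0.12 (adjusted p = 0.00674) without calf 3. GCLM, its modifier subunit, lay at 10.3, 13.3 and 20.6 FPKM in calves 1 to 3 and 14.6, 16.4 and 13.9 FPKM in bulls 1 to 3, with fold changes of 0.07 and 0.33.

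GSS, which adds the last amino acid, lay at 5.59, 5.95 and 5.50 FPKM in calves 1 to 3 and 9.46, 6.42 and 5.25 FPKM in bulls 1 to 3, with overlapping groups and fold changes of 0.23 and 0.21. GSR, which restores glutathione, lay at 13.8, 18.1 and 5.66 FPKM in calves 1 to 3 and 8.63, 9.81 and 9.28 FPKM in bulls 1 to 3. Calf 3 was lowest and the other calves were highest. The fold change of GSR went from -0.27 (adjusted p = 0.592) to -0.72 (adjusted p = 0.00503) without calf 3. With quantile normalization and without calf 3, a combination chosen after seeing the data, GCLC and GSR were called lower, at -1.07 and -1.34. After quantile normalization with all libraries neither was called, at -0.97 and -0.83.

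The 20 GSTs and microsomal GSTs summed to 1166, 1529 and 188 FPKM in calves 1 to 3 and 2046, 2051 and 2540.1 FPKM in bulls 1 to 3. Of the 19 tested, 4 were called higher and 2 lower with all libraries, beside 35.7% and 9.61% of all genes, and 5 and 4 without calf 3, beside 37.9% and 13.6%. The mu class, cytosolic enzymes encoded in a cluster on chromosome 3, held the gene with the highest level of all members in every library but calf 3. GSTM3 (chr3:33652466-33655778) lay at 571, 689 and 42.01 FPKM in calves 1 to 3 and 1228, 1315 and 1386 FPKM in bulls 1 to 3. Every bull lay above every calf, but calf 3 lay far below the other calves, and the fold change was 2.35 ± 1.09 (adjusted p = 0.115) with it and 1.06 ± 0.14 (adjusted p = 0.000681) without it. GSTM3 made up 48.97, 45.1 and 22.3% in calves 1 to 3 and 60.01, 64.1 and 54.6% in bulls 1 to 3 of the FPKM of all GSTs.

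Both genes named GSTM1 lay lower in the bulls than in calves 1 and 2. The gene at chr3:33667202-33720169 lay at 103, 133 and 17.1 FPKM in calves 1 to 3 and 54.8, 37.3 and 76.3 FPKM in bulls 1 to 3, with fold changes of -0.20 with calf 3 and -1.11 ± 0.29 (adjusted p = 0.0142) without it. The gene at chr3:33759204-33765942 was called in neither fit, at 0.31 and -0.97. At these positions RefSeq's ARS-UCD2.0 has no gene named GSTM1. The former span overlaps its genes LOC615514, LOC327709 and GSTM2 and an unnamed gene of the table, and the latter overlaps LOC783879. The genes of this cluster are close copies, so which of them the values belong to is uncertain.

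The theta GSTs lie in 1 cluster on chromosome 17 in the order GSTT4, GSTT1 and GSTT2, and the outer genes were called higher in bulls while the one between them was not. GSTT4 (chr17:71311471-71316105) lay at 1.96, 4.15 and 0.0452 FPKM in calves 1 to 3 and 95.9, 130.5 and 125 FPKM in bulls 1 to 3. Its fold change was 5.54 ± 0.58 (adjusted p = 0.000416) and 4.91 ± 0.26 (adjusted p = 1.57e-05) without calf 3. GSTT2 (chr17:71328580-71334085) lay at 0.0383, 0.234 and 1.13 FPKM in calves 1 to 3 and 31.99, 21.1 and 26.8 FPKM in bulls 1 to 3, with 4.29 ± 0.33 (adjusted p = 0.000117) and 4.59 ± 0.20 (adjusted p = 7.84e-06). For both genes every bull lay far above every calf.

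GSTT1 (chr17:71318878-71326525), given in every library for its place in the cluster after its values were seen, lay at 24.4, 56.1 and 5.18 FPKM in calves 1 to 3 and 33.9, 24.4 and 27.9 FPKM in bulls 1 to 3. The groups overlapped, and the fold changes were 0.51 and -0.37 without calf 3. GSTT1 made up 92.5, 92.7 and 81.5% in calves 1 to 3 and 20.96, 13.9 and 15.6% in bulls 1 to 3 of the theta FPKM. GSTT4 made up 7.40, 6.87 and 0.712% in calves 1 to 3 and 59.3, 74.1 and 69.5% in bulls 1 to 3. The class thus passed from GSTT1 in every calf to GSTT4 in every bull as its leading gene.

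The omega GSTs, which reduce disulfides with glutathione, lie next to each other on chromosome 26. GSTO2 (chr26:24837552-24858231) lay at 1.10, 2.11 and 0.261 FPKM in calves 1 to 3 and 36.8, 32.6 and 42.4 FPKM in bulls 1 to 3. Its fold change was 4.24 ± 0.35 (adjusted p = 0.000163) and 3.90 ± 0.21 (adjusted p = 1.55e-05) without calf 3. GSTO1 (chr26:24827343-24837104) was not called, at -0.69 and -0.91, with 3.63 to 7.22 FPKM in calves and 2.16 to 3.51 FPKM in bulls. All bulls lay above all calves for GSTO2 and below them for GSTO1.

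The alpha GSTs lie in a cluster on chromosome 23, and some of them also isomerise steroids. GSTA5 (chr23:25141525-25201121) lay at 3.22, 2.66 and 0 FPKM in calves 1 to 3 and 21.7, 90.1 and 84.3 FPKM in bulls 1 to 3. All bulls lay above all calves, though bull 1 lay well below the other two, and the fold change was 4.49 ± 0.77 (adjusted p = 0.00345) and 3.83 ± 0.61 (adjusted p = 0.0015) without calf 3. GSTA5 overlaps GSTA3, which was not called, so fragments of the shared stretch are uncertain.

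GSTA1, the leading alpha GST in all libraries but calf 3 and singled out for that after its values were seen, lay at 218, 487 and 0 FPKM in calves 1 to 3 and 450.5, 290.3 and 608 FPKM in bulls 1 to 3. It was listed at 0 in calf 3, the groups overlapped, and the fold changes were 3.18 ± 2.32 (adjusted p = 0.285) with calf 3 and 0.40 ± 0.43 (adjusted p = 0.421) without it. GSTA2, GSTA3 and GSTA4 were not called, with fold changes of 1.81, 1.02 and -0.86 and, without calf 3, of 0.22, 0.61 and -0.80. GSTA4 was lower in every bull (13.9 to 19.9 FPKM) than in every calf (23.7 to 37.04 FPKM), and was called after quantile normalization, at -1.52 ± 0.24 (adjusted p = 0.00243), after median ratio scaling, at -1.36 ± 0.25 (adjusted p = 0.00503), and without calf 2, at -1.04 (adjusted p = 0.0118).

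GSTP1, the pi class enzyme, has 2 genes in the table. The gene at chr29:45441029-45444880 lay at 51.2, 25.9 and 23.4 FPKM in calves 1 to 3 and 14.5, 9.20 and 16.3 FPKM in bulls 1 to 3. All bulls lay below all calves, with a fold change of -1.22 ± 0.36 (adjusted p = 0.0304) and -1.42 ± 0.34 (adjusted p = 0.00936) without calf 3. The call was lost without calf 1 (-0.87, adjusted p = 0.0536), bull 1 (-1.29, adjusted p = 0.0762), bull 2 (-0.99, adjusted p = 0.103) and bull 3 (-1.37, adjusted p = 0.0557). The other copy, at chr29:45409334-45412139, reached at most 1.02 FPKM and was not tested. RefSeq's ARS-UCD2.0 places its GSTP1 at that other copy and names the gene at the position of the called one LOC281806. GSTK1 of the kappa class (-0.68, -0.91 without calf 3) and GSTZ1 of the zeta class (0.25, 0.15) were called in neither fit.

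The microsomal GSTs are membrane proteins that are not related in sequence to the other classes. MGST3 lay at 17.2, 19.3 and 35.9 FPKM in calves 1 to 3 and 3.62, 3.29 and 4.97 FPKM in bulls 1 to 3. All bulls lay below all calves, calf 3 highest, with a fold change of -2.28 ± 0.32 (adjusted p = 0.00136) and -1.97 ± 0.18 (adjusted p = 0.000143) without calf 3. MGST2, which like MGST3 can form leukotriene C4, lay at 14.9, 8.22 and 2.47 FPKM in calves 1 to 3 and 1.94, 1.25 and 1.82 FPKM in bulls 1 to 3, with a fold change of -1.59 ± 0.56 (adjusted p = 0.0514) and -2.19 ± 0.27 (adjusted p = 0.000487) without calf 3. All bulls lay below all calves for MGST2 as well. MGST1 was not called, at 0.58 and 0.65, with 7.42 to 12.5 FPKM in calves and 10.9 to 23.8 FPKM in bulls.

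**Figure D4:**
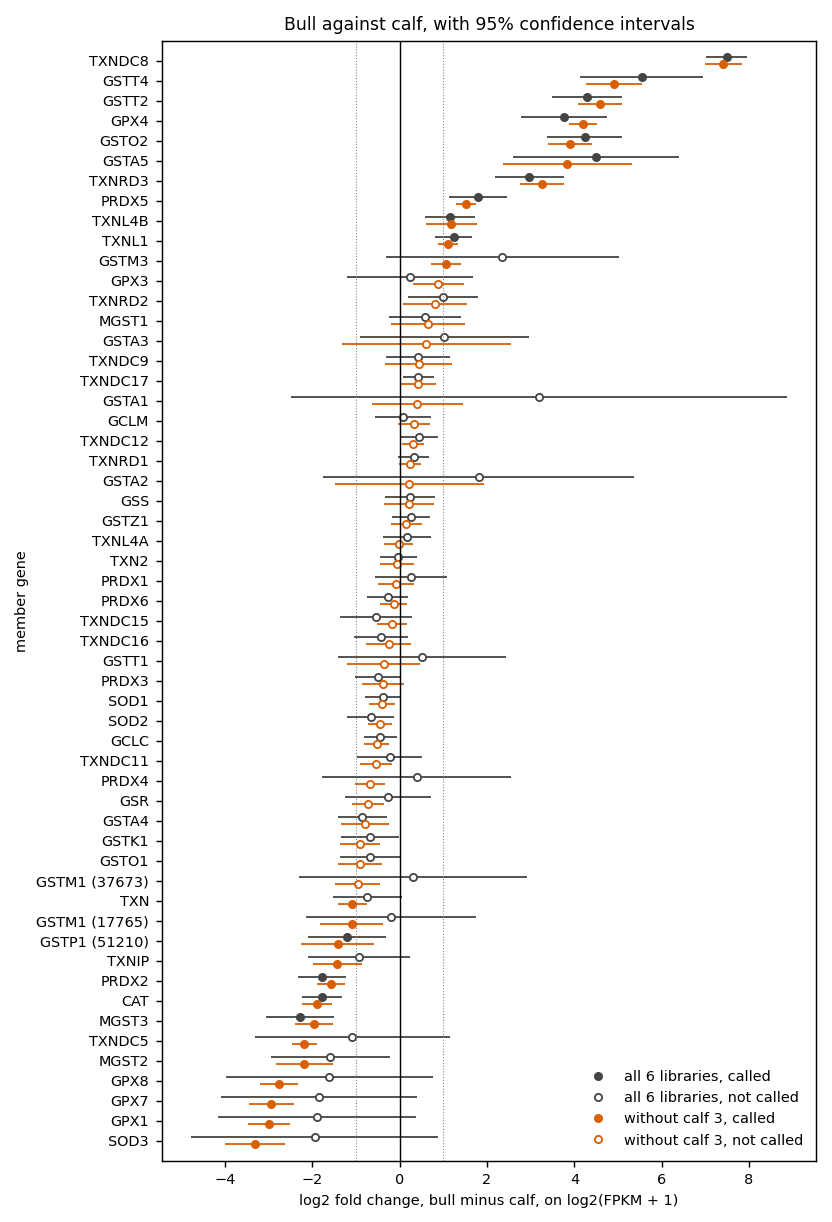
Log2 fold change of the 55 tested members, bulls over calves (x axis, on log2(FPKM + 1)), with 95% confidence intervals from limma, with all 6 libraries (grey) and without calf 3 (orange). Filled points are calls, and dotted lines mark a size of 1. Many of the wide grey intervals narrowed without calf 3, among them those of GSTA1 (3.18 with calf 3, 0.40 without it) and of GPX1, SOD3, GPX7, GPX8 and TXNDC5, which were then called.

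By transcript, the members held 149 transcripts, of which 74 were tested. With all libraries 15 were called higher and 5 lower, beside 34.8% and 9.37% of the 23212 transcripts tested. Without calf 3, 18 were called higher and 17 lower, beside 36.1% and 13.1%. In 13 members at least 2 transcripts were tested. With all libraries, transcripts of 1 gene differed in their call in TXNL4A and TXNL4B, and without calf 3 in TXNL4A, TXNL4B, GSTM1, GSTM3 and PRDX4. The difference between transcripts was not itself tested.

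In TXNL4A the assembled transcript TCONS_00211265 was called lower, at -1.09 ± 0.14 (adjusted p = 0.00109) and -1.10 without calf 3, and the annotated TXNL4A-201 and TXNL4A-202 were not, at 0.29 and 0.90 (0.06 and 0.60 without calf 3). In TXNL4B the transcript TXNL4B-201 was called higher, at 1.58 ± 0.35 (adjusted p = 0.0112) and 1.63 without calf 3, while TXNL4B-202, at 0.95, was called only without calf 3, at 1.01, and the assembled TCONS_00129740 in neither, at 0.10 and 0.05. PRDX4-201 lay at 104, 79.9 and 10.4 FPKM in calves 1 to 3 and 37.6, 36.4 and 33.2 FPKM in bulls 1 to 3. PRDX4-202 lay at 57.4, 42.1 and 4.19 FPKM in calves 1 to 3 and 46.1, 55.2 and 55.2 FPKM in bulls 1 to 3. Without calf 3 the former was called lower, at -1.33 ± 0.14 (adjusted p = 0.000692), and the latter was not called, at 0.08. With all libraries neither was called, at -0.32 and 1.17.

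In GSTM3 nearly all of the level came from GSTM3-202, called without calf 3 at 1.06 ± 0.13 (adjusted p = 0.00127), whereas GSTM3-201, at 0.232 to 2.82 FPKM, was not called. In the first GSTM1 gene of the cluster, GSTM1-209 was called lower without calf 3, at -1.97 ± 0.27 (adjusted p = 0.00187), and the other 4 tested transcripts were not.

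Other genes that supply or use these systems were followed in 6 lists of 94 genes, of which 93 were in the table and 82 were tested. With all libraries 17 were called higher and 9 lower, and without calf 3 there were 18 higher and 19 lower, with 16 and 8 called in both fits. All genes were called higher in 35.7% and lower in 9.61% with all libraries, and in 37.9% and 13.6% without calf 3. After quantile normalization 9 of the 82 were called higher and 31 lower, beside 21.1% and 25.1% of all genes. Where a gene of these lists has a pair of values, the latter is without calf 3.

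Of the genes for glutathione supply and breakdown, 3 of 16 tested were called higher and 1 lower (4 and 5 without calf 3), where 35.7% of all genes were called higher and 9.61% lower (37.9% and 13.6% without calf 3). OPLAH, the 5-oxoprolinase of glutathione turnover, lay at 2.16, 3.27 and 3.22 FPKM in calves 1 to 3 and 24.4, 25.1 and 30.1 FPKM in bulls 1 to 3, with a fold change of 2.83 ± 0.19 (adjusted p = 7.98e-05) and 2.90 without calf 3. GGT6 and DPEP2, enzymes of a kind that breaks down glutathione outside the cell, were low and higher in bulls, at 1.27 and 1.26 (1.16 and 1.27 without calf 3), and GGT5 was lower, at -1.43 ± 0.19 (adjusted p = 0.00121) and -1.60. Without calf 3, GGT1, DPEP1, GGCT and the exporter ABCC1 were also called lower, at -1.49, -1.48, -1.25 and -1.72, and CTH was called higher, at 1.18.

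Of the genes for NADPH supply, 0 of 13 tested were called higher by limma, also at an unadjusted p below 0.05, and 2 were called lower (0 and 5 without calf 3). Of all genes 35.7% were called higher and 9.61% lower (37.9% and 13.6% without calf 3). After quantile normalization 0 of the 13 were called higher and 8 lower, beside 21.1% and 25.1% of all genes, so the count of lower genes depended on the scaling. TKT, the transketolase of the pentose phosphate pathway, lay at 37.5, 61.01 and 28.2 FPKM in calves 1 to 3 and 12.6, 9.78 and 13.8 FPKM in bulls 1 to 3, with a fold change of -1.67 ± 0.31 (adjusted p = 0.00473) and -1.92 without calf 3. IDH2, the mitochondrial isocitrate dehydrogenase that makes NADPH, lay at 18.01, 20.8 and 26.9 FPKM in calves 1 to 3 and 7.29, 9.27 and 7.69 FPKM in bulls 1 to 3, with -1.32 ± 0.20 (adjusted p = 0.00203) and -1.17 without calf 3. Both were lower in every bull than in every calf, and PGD and MTHFD1 were among those called lower only without calf 3, at -1.25 and -1.13.

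Glutaredoxins and other genes of thiol repair were called higher in 7 of 19 tested and lower in 1 (8 and 1 without calf 3), where 35.7% of all genes were called higher and 9.61% lower (37.9% and 13.6% without calf 3). NME8, a thioredoxin domain protein of sperm and cilia, lay at 0.184, 0.0541 and 0 FPKM in calves 1 to 3 and 62.8, 65.2 and 56.2 FPKM in bulls 1 to 3, with a fold change of 5.85 ± 0.16 (adjusted p = 4.27e-06) and 5.80 without calf 3. It reached 1 FPKM in no calf and entered the test through the bulls alone. HAGH, which releases glutathione from lactoylglutathione, lay at 5.19, 7.13 and 14.3 FPKM in calves 1 to 3 and 109.9, 88.6 and 95.2 FPKM in bulls 1 to 3, with 3.43 ± 0.35 (adjusted p = 0.000372) and 3.80 without calf 3. GLRX2, a glutaredoxin of mitochondria, lay at 6.48, 5.99 and 7.73 FPKM in calves 1 to 3 and 55.5, 65.9 and 54.99 FPKM in bulls 1 to 3, with 2.95 ± 0.16 (adjusted p = 3.50e-05) and 3.04 without calf 3. These genes were higher in every bull than in every calf, while GLRX5, the mitochondrial glutaredoxin of iron and sulfur clusters, was called lower, at -1.16 ± 0.36 (adjusted p = 0.0333) and -1.56.

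Of the NRF2 pathway, the transcription factor system that controls many antioxidant genes, and its other targets, 3 of 17 were called higher and 3 lower in each fit. Beside them, 35.7% of all genes were called higher and 9.61% lower (37.9% and 13.6% without calf 3). NFE2L2, which encodes NRF2 itself, lay at 19.4, 23.1 and 20.5 FPKM in calves 1 to 3 and 7.97, 9.001 and 6.87 FPKM in bulls 1 to 3, with a fold change of -1.30 ± 0.16 (adjusted p = 0.000916) and -1.32 without calf 3. CUL3 and KEAP1, which together mark NRF2 for breakdown, were called higher, at 2.25 ± 0.23 (adjusted p = 0.000405) and 1.10 ± 0.23 (adjusted p = 0.00835) with all libraries and 2.03 and 1.298 without calf 3. HMOX2, the constitutive haem oxygenase, was called higher, at 2.07 ± 0.40 (adjusted p = 0.00578) and 2.54, and BACH1, a repressor of NRF2 targets, was called lower, at -1.34 ± 0.18 (adjusted p = 0.00121) and -1.46. The ferritin gene FTH1 was called lower only with calf 3 (-1.13, and -0.82 without it) and HMOX1 only without it (-1.25).

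Of the genes for selenium supply and selenoprotein synthesis, on which glutathione peroxidases and thioredoxin reductases with selenocysteine depend, 3 of 10 tested were called higher and 0 lower by limma, with 2 lower at an unadjusted p below 0.05 (2 higher and 1 lower were called without calf 3). Beside them, 35.7% of all genes were called higher and 9.61% lower (37.9% and 13.6% without calf 3). PSTK, which acts on the serine carried by the selenocysteine tRNA, lay at 1.72, 2.84 and 2.48 FPKM in calves 1 to 3 and 7.10, 6.21 and 7.89 FPKM in bulls 1 to 3, with a fold change of 1.28 ± 0.21 (adjusted p = 0.00257) and 1.31 without calf 3. TRNAU1AP, a protein bound to that tRNA, lay at 9.04, 9.73 and 8.06 FPKM in calves 1 to 3 and 24.4, 21.4 and 17.5 FPKM in bulls 1 to 3, with 1.14 ± 0.18 (adjusted p = 0.0023) and 1.08 without calf 3. EEFSEC was called only with calf 3, at 1.05 (0.75 without it), and SEPHS1 was called lower only without it, at -1.08 (-0.92 with it).

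Of the sources of superoxide and of copper delivery, 7 of 13 genes were tested, of which 1 was called higher and 2 lower (1 and 4 without calf 3). Beside them, 35.7% of all genes were called higher and 9.61% lower (37.9% and 13.6% without calf 3). The genes called in both fits encode parts of the NADPH oxidase of phagocytes. NCF4 lay at 0.820, 0.698 and 0.720 FPKM in calves 1 to 3 and 8.25, 15.8 and 17.2 FPKM in bulls 1 to 3, with a fold change of 3.02 ± 0.29 (adjusted p = 0.000314) and 3.01 without calf 3. It reached 1 FPKM in no calf and entered the test through the bulls alone. NCF1 and CYBB were called lower, at -1.67 ± 0.49 (adjusted p = 0.0281) and -1.26 ± 0.23 (adjusted p = 0.00466) with all libraries and -1.10 and -1.38 without calf 3. CCS, which delivers copper to SOD1, was called lower only without calf 3, at -1.36, as was CYBA, at -1.03.

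**Figure D5:**
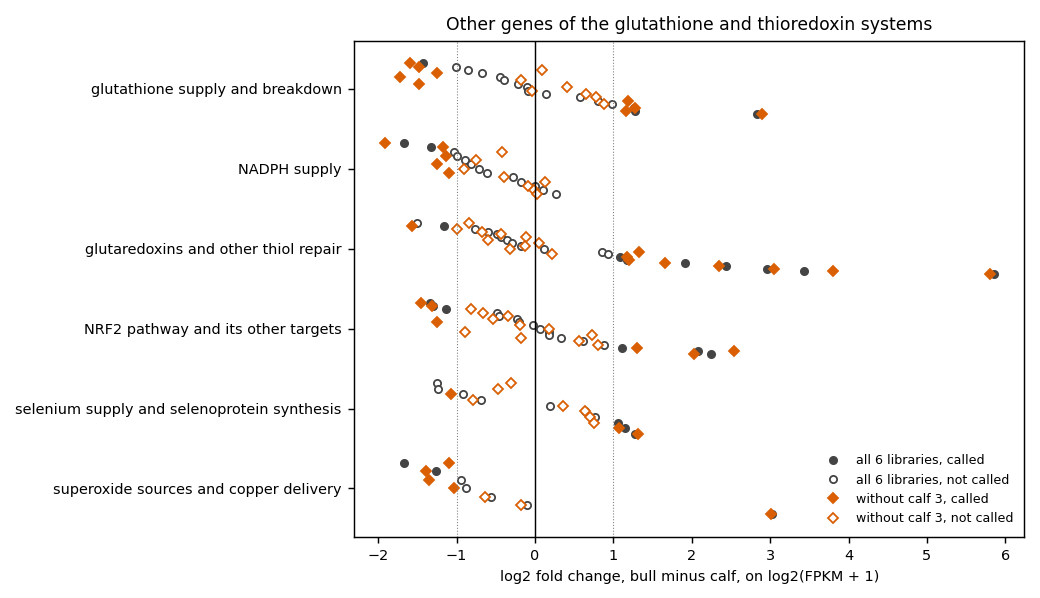
Log2 fold change, bulls over calves (x axis, on log2(FPKM + 1)), of the tested genes of 6 other lists (rows), with all 6 libraries (circles) and without calf 3 (diamonds), filled where called. NME8 lay farthest right at 5.85. Of the 13 tested genes for NADPH supply 0 were called higher, where 35.7% of all genes were with all libraries and 37.9% without calf 3.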

How the data were processed

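Total RNA of 6 testes was depleted of ribosomal RNA and made into strand-specific libraries, 1 per animal, grouped by their labels. The authors deposited FPKM values for genes and for transcripts assembled with StringTie. The tool behind the FPKM of genes, its use of strand and its handling of shared fragments are not given in the sources used here. The values hold no counts, so the depth behind each is unknown and no counting interval was computed. FPKM summed to 587066 (calf 3) to 1098720 (calf 2) per library. The Methods name UMD3.1.1, but 1050 genes lie on scaffolds named as in ARS-UCD and 55 of 59 members overlap the locus of the same symbol in RefSeq's ARS-UCD2.0, so positions were read as ARS-UCD.

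Members and lists were chosen with earlier results of these data known. Features reaching 1 FPKM in at least 3 of 6 libraries were tested on log2(FPKM + 1), a pseudocount that lowers the fold changes of low genes, with limma 3.58.1 in R 4.3.3 (two-sided, mean-variance trend, Benjamini-Hochberg over all features). Thresholds were an adjusted p of 0.05 and a size of 1 on the log2 scale, and the procedure was tested on simulated data. Values per library are given for called members whose groups do not overlap (up to 12 per direction) and for single-copy enzymes, with both fits where a call changed without calf 3. From other lists, up to 3 genes per direction called in both fits were named, and among transcripts those of members that differed in their call. Alternatives were a pseudocount of 0.1, no filter, quantile normalization, median ratio scaling, leaving out each library and a replicate block. Of the other lists, 1 gene is counted but not reported by name here.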

Additional observations from a re-analysis of the deposited data

How the results depend on the processing

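All 14 called members kept their call and direction without calf 2, without calf 3, with a pseudocount of 0.1 and without the filter, 13 of 14 without each bull in turn, 12 of 14 without calf 1, after quantile normalization and after median ratio scaling, and 11 of 14 with quantile normalization and without calf 3. The members called lower numbered 4 with all libraries, 17 after quantile normalization, 12 after median ratio scaling and 25 with quantile normalization and without calf 3, a combination added after seeing the data. Leaving out 1 library gave 3 to 13 lower members (13 without calf 3), 9 to 11 higher members, 7318 to 9325 genes in all, 22 to 37 genes of the other lists and 19 to 35 member transcripts (35 without calf 3). After quantile normalization, with and then without calf 3, calls in the other lists went from 26 to 40 and 42, and member transcripts from 20 to 36 and 44. Under the latter setting the fold changes of GSTM1 at chr3:33759204-33765942 (-1.65), GSTT1 (-1.16) and PRDX4 (-1.27) turned negative and were called, against 0.31, 0.51 and 0.38 as reported, and the cause was not tested. Of the 41 uncalled members, the sign turned in 13 after quantile normalization, 11 after median ratio scaling and 5 without calf 3. With the replicate number as a replicate block, 10 members were higher and 4 lower, with 8128 genes, 25 genes of the lists and 20 member transcripts called. Same-numbered animals correlated at 0.03, 0.02 and 0.03 in their deviations, each calf best with its own number. Deviations from the mean of 3 libraries cannot show whether same-numbered libraries shared a batch. The labels give them only a common number, so they were not treated as pairs. The depth of single values is unknown, which limits what can be said of genes near 0.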

Other observations

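The bulls differed among themselves in the alpha GSTs. GSTA5 lay at 21.7 FPKM in bull 1 and at 90.1 and 84.3 FPKM in bulls 2 and 3, and GSTA3, which it overlaps, at 0.333, 4.58 and 6.62 FPKM. GSTA1 lay at 450.5, 290.3 and 608 FPKM in bulls 1 to 3 and MGST1, not an alpha GST, at 14.9, 10.9 and 23.8 FPKM. The Leydig cell markers summed to 2162, 1465 and 2738 FPKM in the same animals. Bull 3 was highest and bull 2 lowest in GSTA1, MGST1 and this sum. Every alpha GST other than GSTA1 was instead lowest in bull 1. GSTA2 lay at 18.1, 42.2 and 58.8 FPKM and GSTA4 at 13.9, 16.6 and 19.9 FPKM in bulls 1 to 3. In calves 1 and 2 GSTA1 lay at 218 and 487 FPKM and the Leydig sum at 1406 and 1141 FPKM, which is the opposite order. Such orders among 3 and 2 animals were noticed after the values were seen and carry no test.

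The summed FPKM of all 59 members was 2709 and 3158 in calves 1 and 2, 1119 in calf 3 and 3698, 3715 and 4324 in bulls 1 to 3. GSTM3 alone gave 21.1% and 21.8% of it in calves 1 and 2, and 32.1% to 35.4% in the bulls. In calf 3 the gene with the highest level was SOD1, at 130.3 FPKM and 11.6% of the sum.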
